A study of Homo sapiens with 3 samples.

Results

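The 9 genes described here are the pocket protein genes RB1, RBL1 and RBL2, the MuvB core genes LIN9, LIN37, LIN52 and LIN54, and the mitotic activator genes MYBL2 and FOXM1. They were chosen by name and read by all probe sets that the platform annotation gives to 1 of these symbols alone, 18 probe sets of the 41091 that carry 1 symbol and 9 genes of 19775. The arrays came from U2OS, a human osteosarcoma cell line, harvested 5 days after retroviral transduction. The cells received Set8_deltaPIP2, a stable Set8b that escapes the CRL4-Cdt2 ubiquitin ligase, or wild-type Set8b (Wt-Set8b), or the empty pMSCV vector. Set8 (gene KMT5A) adds the first methyl group to lysine 20 of histone H4, and the labels describe no deletion of the cells' own gene. Each construct had 1 array, 3 in all, so the differences below are values of 2 arrays with no replicate check and no p-value.

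Pocket proteins bind E2F transcription factors and hold genes of DNA synthesis silent until cyclin-dependent kinases phosphorylate them. RBL1 (p107) and RBL2 (p130) also join E2F4 or E2F5, a DP protein and the MuvB core to form DREAM, a complex that represses cell cycle genes in resting cells. When cells cycle, MuvB leaves the pocket protein and binds B-MYB (gene MYBL2) and then FOXM1, and these assemblies switch on the genes of G2 and mitosis. U2OS cells are known to carry an intact RB1 gene.

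Values are quantile-normalised signals in arbitrary units, and a difference is the log2 ratio of 2 arrays. Probe sets whose mean log2 signal reached the median over all probe sets, a signal of 37.0, passed the filter, and the brightest probe set stood for each of 12631 genes. Of the 18 member probe sets 11 passed, in 8 of the 9 genes, and LIN9 did not. Probe sets of the same gene differed by an SD of 0.44 log2 for stable Set8b over vector, 0.41 for wild-type Set8b over vector and 0.47 for stable over wild-type Set8b (5952 genes with several probe sets). Differences between cultures are not part of that SD, and precision is limited by the small number of arrays. Median deposited intensity was 41.7 for stable Set8b, 42.8 for wild-type Set8b and 38.6 for vector. In the hybridisation spike-ins (18 probe sets) the stable Set8b array had a median of 0.796 times the vector array, and the wild-type Set8b array 1.01 times. In the poly-A spike-ins (27 probe sets) these medians were 0.463 and 0.453. Their part in the differences below was not tested. The ratio of 3' to 5' signal for GAPDH, a check of RNA integrity, was 1.02 for stable Set8b, 1.12 for wild-type Set8b and 1.03 for vector. For ACTB it was 7.33, 7.56 and 8.0 in that order, a strong 3' excess on every array. KMT5A itself was read by 4 probe sets at 0.90, 0.38, 0.12 and, by the brightest, -0.76 with stable Set8b over vector, and at 1.23, 0.48, 0.18 and 0.31 in the same order with wild-type Set8b over vector. The probe sets do not move together with stable Set8b and so do not settle its label. Of 6 mesenchymal and osteoblast markers 5 passed the filter, and COL1A2 stayed below it. VIM was bright on every array, at 13006, 11123 and 12786.5 for stable Set8b, wild-type Set8b and vector. RUNX2 was lowest with stable Set8b (540, 894 and 831 in that order) and CDH11 highest (367, 156 and 150). Of 4 leukocyte markers listed 3 were measured and 0 passed the filter. Of 3 epithelial markers 2 passed, with a summed signal over all 3 of 249, 444 and 470.5 in that order. EPCAM read 169, 425 and 431 and CDH1 78.6, 17.8 and 38.1, so they went opposite ways, and KRT19 read at most 1.1. Of 2 endothelial markers PECAM1 passed, with a summed signal over both of 178, 130.4 and 80.2. The part of such markers in the differences was not tested.

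In U2OS cells with stable Set8b, FOXM1, MYBL2 and RBL1 were lower than with either wild-type Set8b or vector, and so were LIN54 and the brightest probe set of LIN52. RB1 and LIN37 lay close to their vector level, and RBL2 was lower with both forms of Set8b. With stable Set8b over vector, 2 of the 8 genes past the filter were at least 2-fold lower (FOXM1 and RBL1), against 5.12% of all genes, and 0 were 2-fold higher, against 5.72%. At a 1.5-fold difference 6 of the 8 were lower, against 14.6% of all genes, and at 3-fold 0 were, against 1.2%. In bulk RNA, fewer cells that express a gene and less of its RNA per cell cannot be told apart.

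**Figure D1:**
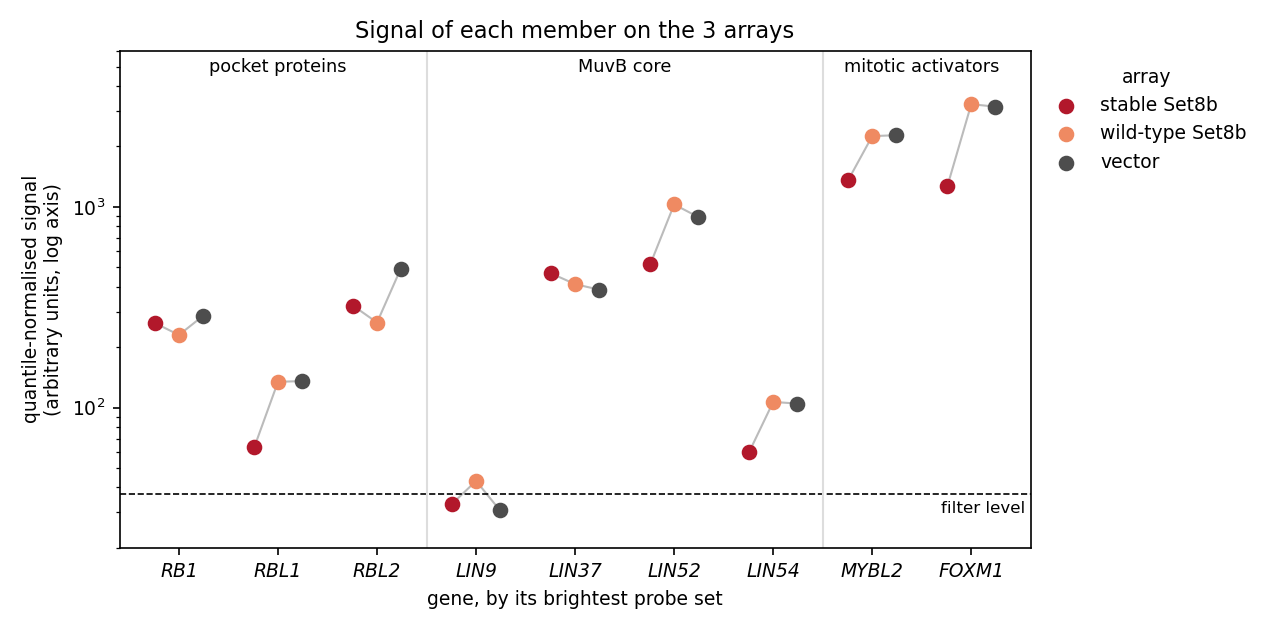
Quantile-normalised signal (log axis) of each of the 9 genes by its brightest probe set on the stable Set8b, wild-type Set8b and vector arrays, 1 point per array, with the filter level of 37.0 as a dashed line. Stable Set8b is the lowest point for RBL1, LIN52, LIN54, MYBL2 and FOXM1, and LIN9 lies around the filter level. Heights of different genes come from different probes and cannot be set against each other.

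**Figure D2:**
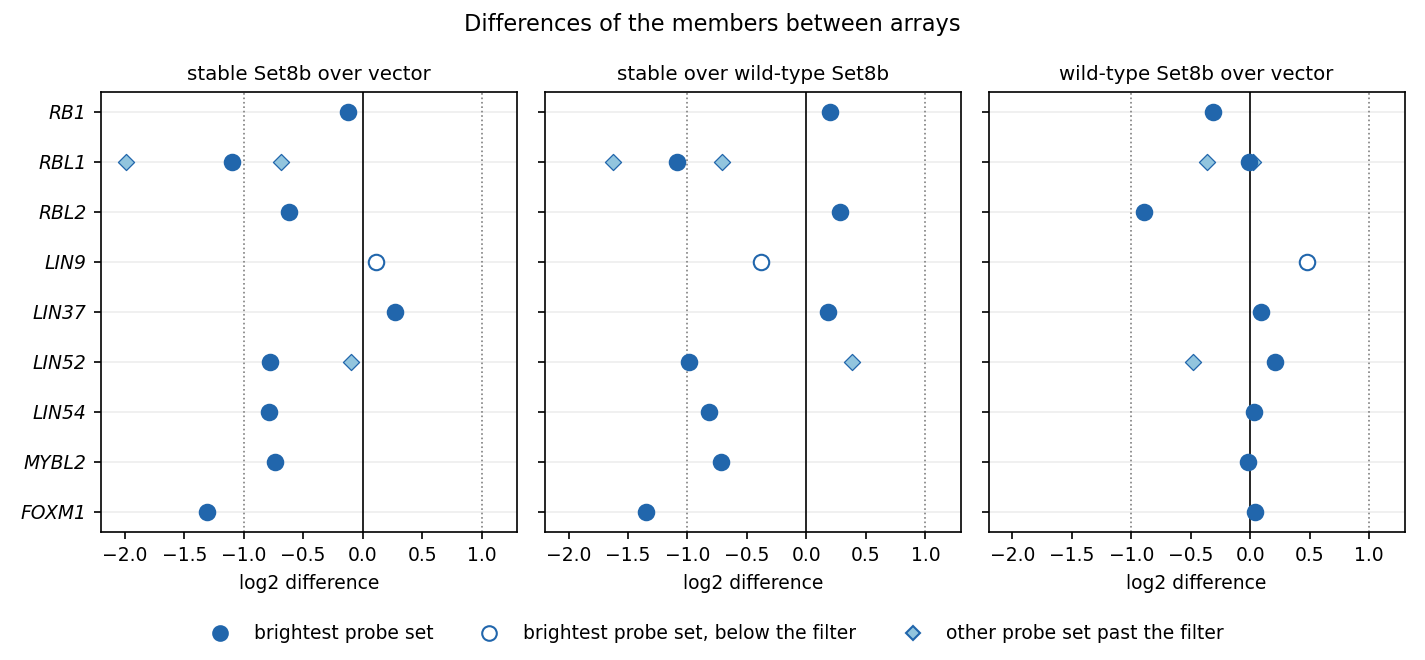
Log2 differences of the 9 genes for stable Set8b over vector, stable over wild-type Set8b and wild-type Set8b over vector, with dotted lines at 2-fold. FOXM1 and RBL1 lie past the lower dotted line in both comparisons of stable Set8b, and RBL2 is the gene farthest below 0 for wild-type Set8b over vector, at -0.89. The probe sets of LIN52 lie apart in all 3 panels.

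Promoters are shown because E2F and DREAM act on promoter sequence. They are those of genes whose brightest probe set was lower with stable Set8b than on both other arrays. For LIN52 the other probe set past the filter was not lower than with wild-type Set8b. RBL2, lower with both forms of Set8b over vector, is therefore not printed. RefSeq promoter windows (GRCh38.p14, 250 bases before to 50 after a start) were at hand for 8 of the 9 genes, and FOXM1 had no entry. The only RB1 window, chr13:48476200-48476499, lies inside the gene, which spans chr13:48303751-48481890, and so is not its main promoter. The lines below give, 5′ to 3′ on the gene's strand, the 250 bases before the start of RBL1 (chr20:37095998-37096247, minus strand), LIN52 (chr14:74084706-74084955, plus strand), LIN54 (chr4:83010824-83011073, minus strand) and MYBL2 (chr20:43666864-43667113, plus strand). Capitals mark matches to an E2F motif or to the cell cycle homology region (CHR), the element that the MuvB subunit LIN54 binds.
RBL1: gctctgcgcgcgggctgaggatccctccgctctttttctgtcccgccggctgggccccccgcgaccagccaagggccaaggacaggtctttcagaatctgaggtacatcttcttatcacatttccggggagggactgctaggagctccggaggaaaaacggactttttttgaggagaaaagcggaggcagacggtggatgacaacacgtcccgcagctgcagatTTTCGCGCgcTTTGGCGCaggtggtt
LIN52: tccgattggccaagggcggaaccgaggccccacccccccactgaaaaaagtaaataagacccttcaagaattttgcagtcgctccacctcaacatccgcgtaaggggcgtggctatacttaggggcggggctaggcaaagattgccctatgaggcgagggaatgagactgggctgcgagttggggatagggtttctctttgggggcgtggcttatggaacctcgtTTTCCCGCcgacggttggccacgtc
LIN54: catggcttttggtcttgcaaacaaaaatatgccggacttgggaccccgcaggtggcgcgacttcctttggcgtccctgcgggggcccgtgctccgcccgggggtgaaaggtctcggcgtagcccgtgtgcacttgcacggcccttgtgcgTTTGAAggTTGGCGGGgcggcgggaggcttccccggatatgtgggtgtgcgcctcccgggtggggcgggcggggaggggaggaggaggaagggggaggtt
MYBL2: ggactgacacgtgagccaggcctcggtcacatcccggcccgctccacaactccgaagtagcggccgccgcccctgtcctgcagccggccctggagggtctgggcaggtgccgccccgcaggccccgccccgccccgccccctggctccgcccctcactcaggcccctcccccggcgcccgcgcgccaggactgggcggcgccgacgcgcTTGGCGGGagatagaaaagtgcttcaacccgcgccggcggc

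The E2F motif was searched as TTTCCCGC, TTTCGCGC, TTTGCCGC and TTTGGCGC on both strands, and 3.31% of 35116 RefSeq windows hold a match. Among the members RBL1 held 2, TTTCGCGC beginning at base -26 from the start and TTTGGCGC at -16. LIN52 held TTTCCCGC at -25, and no other member window held a match to these letters. MYBL2 carries TTGGCGGG at -41, letters of its known E2F site that the 4 forms do not cover. That form was added after the window was seen, and 1.2% of windows hold it. LIN54 held it too, at -92, 2 bases after a CHR match TTTGAA at -100. The RBL2 windows, whose sequence is not printed, held neither TTGGCGGG nor any of the 4 forms. CHR was searched as TTTGAA and TTCGAA, which 16.4% of windows hold. It was found in RBL2 (25 bases past the start), LIN9 (-60 and -3), LIN37 (-182 in its second window) and LIN54. The general promoter box CCAAT, in 34.6% of windows, stood in RBL2, LIN37 and LIN52. The forkhead letters TAAACA, in 12.3%, stood in both RBL2 windows. Some genes have several windows, and those of LIN54 overlap, so matches are not independent of each other. A match is a description of sequence and shows no binding here.

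**Figure D3:**
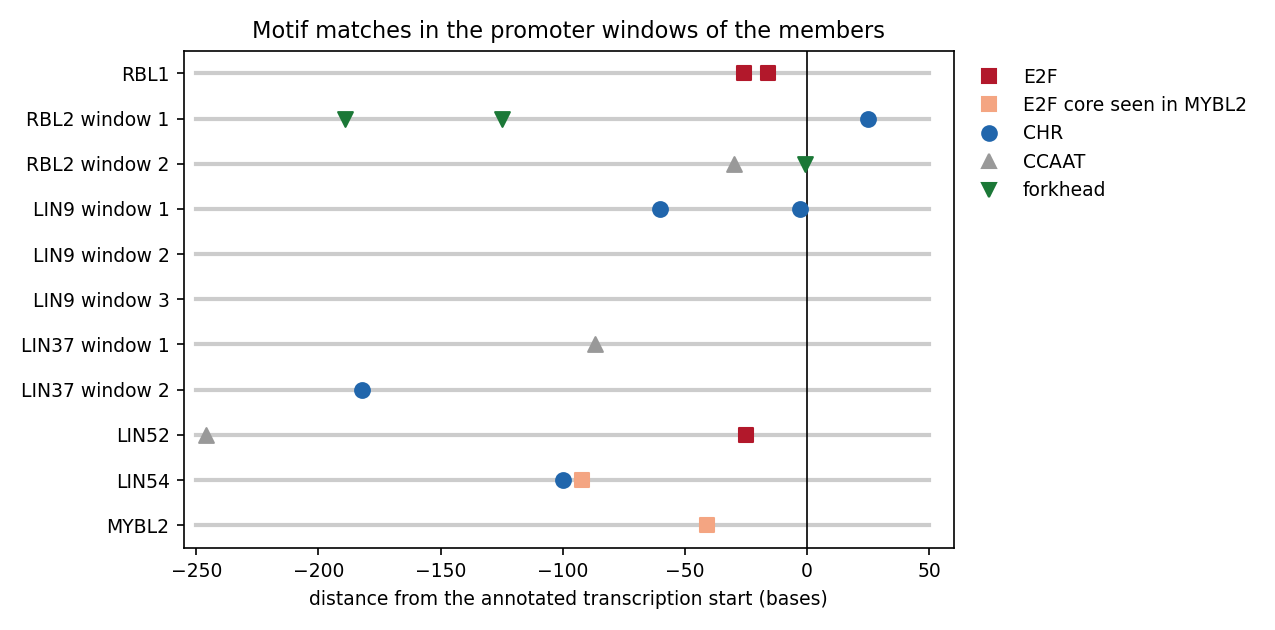
Position of each motif match from the annotated transcription start (bases) in the RefSeq promoter windows of RBL1, RBL2, LIN9, LIN37, LIN52, LIN54 and MYBL2, 1 row per window. The E2F matches of RBL1 and LIN52 lie within 26 bases of the start, and the CHR and E2F core matches of LIN54 lie side by side. The second LIN54 window, which overlaps the first, and the RB1 window inside the gene are left out.

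The pocket protein genes did not move together. RB1, the retinoblastoma tumour suppressor, had a signal of 263 with stable Set8b, 230.0 with wild-type Set8b and 285.5 with vector (probe set 203132_at). The 3 arrays lay close to each other, and the differences were -0.12 with stable and -0.31 with wild-type Set8b, each over vector, and 0.20 for stable over wild-type Set8b, all smaller than the SD between probe sets. Its other probe set, 211540_s_at, read between 5.1 and 6.6, below the floor of 7.7, and carried no value.

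RBL1 encodes p107, the pocket protein that is itself made as cells enter S phase. Its brightest probe set, 205296_at, read 63.3 with stable Set8b, 134 with wild-type Set8b and 135.5 with vector. The stable Set8b array was low, and the other arrays were nearly equal. RBL1 was 2.14-fold lower for stable Set8b over vector (-1.10) and 2.12-fold lower for stable over wild-type Set8b (-1.09), and wild-type Set8b over vector stood at -0.01. Of all genes past the filter, 4.0% had a lower difference than RBL1 for stable Set8b over vector.

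Both other RBL1 probe sets past the filter were also lowest with stable Set8b. Probe set 1555004_a_at read 29.7, 48.6 and 48.0 for stable Set8b, wild-type Set8b and vector. Probe set 1559307_s_at read 18.4, 56.8 and 73.1 in the same order. Its difference for stable Set8b over vector was -1.99, and -0.98 with the stable side raised to the filter level of 37.0, a setting added after seeing the data. For 1555004_a_at the same 2 values were -0.69 and -0.37, the latter smaller in size than the SD between probe sets. The fourth, 1555003_at, read at most 20.3 and stayed below the filter.

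RBL2 encodes p130, the main pocket protein of DREAM in resting cells. Probe set 212331_at read 321.5 with stable Set8b, 265 with wild-type Set8b and 492.5 with vector. Here the vector array was the high one, unlike RBL1. The differences were -0.62 with stable and -0.89 with wild-type Set8b, each over vector, and 0.28 for stable over wild-type Set8b. For wild-type Set8b over vector, 1.65% of all genes had a lower difference than RBL2. The second probe set, 212332_at, was below the filter at 3.9, 44.7 and 25.3, and its order of arrays was another one.

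Among the MuvB core genes, LIN54 and the brightest probe set of LIN52 were lower with stable Set8b and LIN37 was not. LIN54 encodes the DNA-binding subunit that reads the CHR, and its single probe set, 235809_at, read 60.4 with stable Set8b, 107 with wild-type Set8b and 105 with vector. It was 1.73-fold lower for stable Set8b over vector (-0.79) and 1.77-fold lower for stable over wild-type Set8b (-0.82), while wild-type Set8b over vector stood at 0.03. The pattern of arrays was that of RBL1, at a smaller size.

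LIN52 encodes the subunit whose phosphorylation by DYRK1A lets MuvB bind p107 or p130. Its brightest probe set, 228583_at, read 519 with stable Set8b, 1029 with wild-type Set8b and 892 with vector, which puts stable Set8b at -0.78 over vector and at -0.99 over wild-type Set8b. Its other probe set, 231959_at, read 161, 124 and 172 in that order, differences of -0.10 and 0.38. The direction of LIN52 for stable over wild-type Set8b was therefore not settled by these arrays.

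LIN37, a subunit needed for repression by DREAM, read 466 with stable Set8b, 412 with wild-type Set8b and 387 with vector by 213526_s_at. Its difference of 0.27 for stable Set8b over vector was smaller than the SD between probe sets. The other probe set, 232534_at, read at most 9.7. LIN9, which with LIN52 makes the surface that binds B-MYB, had 3 probe sets, none past the filter. The brightest, 235039_x_at, read 33.2 with stable Set8b, 43.1 with wild-type Set8b and 30.8 with vector, so no direction is given for LIN9.

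MYBL2 encodes B-MYB, which joins MuvB in S phase and is itself an E2F target. Its single probe set, 201710_at, read 1367 with stable Set8b, 2252 with wild-type Set8b and 2277 with vector. The stable Set8b array was low and the others nearly equal, as for RBL1 and LIN54. MYBL2 was 1.67-fold lower for stable Set8b over vector (-0.74) and 1.65-fold lower for stable over wild-type Set8b (-0.72), with -0.02 for wild-type Set8b over vector.

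FOXM1 encodes the forkhead factor that is recruited through MuvB and B-MYB and drives the G2 and mitosis genes. It read 1274 with stable Set8b, 3249 with wild-type Set8b and 3160.5 with vector by its single probe set, 202580_x_at. It was the member with the largest difference by brightest probe set, 2.48-fold lower for stable Set8b over vector (-1.31) and 2.55-fold lower for stable over wild-type Set8b (-1.35). Wild-type Set8b over vector stood at 0.04. Of all genes past the filter, 2.43% had a lower difference for stable Set8b over vector and 2.19% for stable over wild-type Set8b. The suffix of this probe set marks probes that may also read other transcripts, and no second probe set was at hand.

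Set against each other, MYBL2 and FOXM1 averaged -1.02 for stable Set8b over vector, and the 6 RB family and MuvB genes past the filter had a median of -0.70, or -0.62 over all 7 with LIN9. All genes had a median below 0.01 in size and quartiles of -0.36 and 0.34. The RB family and MuvB genes ran from -1.10 to 0.27, so their range held MYBL2 at -0.74 but not FOXM1. For stable over wild-type Set8b the activators averaged -1.04 and the 6 other genes had a median of -0.32, whose direction was not settled: it was 0.19 in the brightest 25% of probe sets, -0.06 by the mean over probe sets and -0.82 when _x_at and _s_at probe sets were left out. The median of -0.32 lay in a gap between 3 genes from -1.09 to -0.82 (RBL1, LIN52, LIN54) and 3 from 0.18 to 0.28 (LIN37, RB1, RBL2). In that comparison 2 of 8 members were at least 2-fold lower, again FOXM1 and RBL1, against 5.23% of all genes, and 0 were 2-fold higher, against 4.96%. At 1.5-fold 5 were lower, against 15.0% of all genes, and at 3-fold 0, against 1.3%. Both comparisons share the stable Set8b array.

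With wild-type Set8b over vector, 0 of the 8 genes past the filter were at least 2-fold lower or higher, against 1.05% and 1.67% of all genes. MYBL2 and FOXM1 averaged 0.01, and the median of the 6 RB family and MuvB genes was also 0.01. RBL2 was the farthest from 0 and the 1 member at least 1.5-fold lower, against 5.11% of all genes. Of all 2-fold calls in this comparison 61.5% were higher, and this share was 72.2% with values as deposited and 49.3% with arrays centred on their medians. Centring moved the median of all genes to -0.12. FOXM1 then stood at -0.12, LIN54 at -0.07 and LIN37 at -0.06. Each was above 0 before centring, so none of these has a settled direction in this comparison. MYBL2 moved from -0.02 to -0.18, both smaller in size than the SD between probe sets, so no direction is given for it either.

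A form of description chosen after the values were seen joins the comparisons. In 5 members (RBL1, LIN52, LIN54, MYBL2 and FOXM1) stable Set8b was at least 1.5-fold below both other arrays while those lay within 1.2-fold of each other. Of all genes past the filter 6.87% met the same terms. LIN52 met them by its brightest probe set only.

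Other subunits of DREAM and MuvB, relatives of the members and kinases upstream of LIN52 form a list of 10 genes, all past the filter. With stable Set8b over vector 8 of the 10 lay below 0 (50.3% of all genes), 2 passed 2-fold downwards (MYB and MYBL1, relatives of MYBL2 and not subunits of DREAM), against 5.12%, and the list's median was -0.58. MYB, best known in blood progenitors, read 56.0 with stable Set8b, 219 with wild-type Set8b and 164 with vector, a difference of -1.55. MYBL1 (A-MYB) read 237, 319 and 489 in that order, so its vector array was the high one (-1.05 with stable and -0.62 with wild-type Set8b, each over vector). All 3 MYB family genes were thus lowest with stable Set8b. For MYBL1 the difference of stable over wild-type Set8b, -0.43, was smaller than the SD between probe sets.

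Among the subunits, E2F4, the E2F of DREAM, had probe sets at -0.75 (the brightest) and 0.08 for stable Set8b over vector. RBBP4, the histone-binding subunit of MuvB, stood at -0.74, with its 6 probe sets from -1.04 to -0.08. The dimerisation partner TFDP1 stood at -0.59, with 3 probe sets from -1.91 to -0.59. The kinase DYRK1A, which phosphorylates LIN52, was at -0.55, and RBBP7, a close relative of RBBP4, at -0.57. E2F5 at -0.20 and TFDP2 at 0.18 differed by less than the SD between probe sets. LATS2, a kinase upstream of DYRK1A, stood at 0.17, with 3 probe sets from 0.04 to 0.76. For stable over wild-type Set8b the list's median was -0.51, and for wild-type Set8b over vector it was -0.12.

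The kinases that phosphorylate pocket proteins, with their inhibitors, went both ways. Of 14 listed genes 12 passed the filter, CDKN2B did not, and CDKN2C was not read by a probe set of its own. With stable Set8b over vector 2 genes passed 2-fold upwards and 2 downwards, around a median of -0.04, against 5.72% and 5.12% of all genes. CDKN1A, the p21 inhibitor, read 6590 with stable Set8b, 1891 with wild-type Set8b and 1052 with vector, and CCND1, cyclin D1, stood at 1.63. Downwards, the inhibitor CDKN1B (p27) stood at -1.73 and the cyclin gene CCNE2 at -1.53. The array with the highest CDKN1A signal was thus also the one with the lowest FOXM1, MYBL2 and RBL1 signals, and whether these are linked was not tested.

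Most of the listed genes that these complexes act on lay below 0 with stable Set8b over vector, where 50.3% of all genes did and 5.12% were at least 2-fold lower. The lists were chosen with earlier results of these data known. Of 42 G1/S genes known to be bound by E2F 40 had a probe set of their own, all past the filter. By the brightest probe set 40 of these lay below 0, 22 of them by 2-fold or more, around a median of -1.06. The highest stood at -0.01. In some of these genes another probe set past the filter lay above 0, up to 1.52 by a dim one. E2F8 (-2.88), E2F2 (-1.71), MCM7 (-1.65) and CLSPN (-1.59, with 4 probe sets from -1.73 to -0.43) lay farthest from 0. Of 41 G2/M genes known to be bound by B-MYB, MuvB and FOXM1 all 41 passed. By the brightest probe set 38 of them lay below 0 and 13 passed 2-fold downwards, around a median of -0.82. The 3 above 0 reached at most 0.13. The lowest were AURKB (-1.86), KIF11 (-1.84), MKI67 (-1.68) and CENPF (-1.44, and 0.44 by its other probe set). For stable over wild-type Set8b the medians were -0.93 for the G1/S genes and -0.72 for the G2/M genes. For wild-type Set8b over vector they were -0.15 and -0.10.

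FOXM1 had a lower difference than most genes of the G2/M list. For stable Set8b over vector 5 of the 41 G2/M genes had a lower difference than FOXM1 and 36 a higher one. MYBL2 lay in the middle of that list, with 23 genes lower and 18 higher. Against the 40 G1/S genes 12 were lower than FOXM1, and 29 were lower than MYBL2. These differences rest on the same arrays and on probe sets of unlike response, and no test was made of them.

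**Figure D4:**
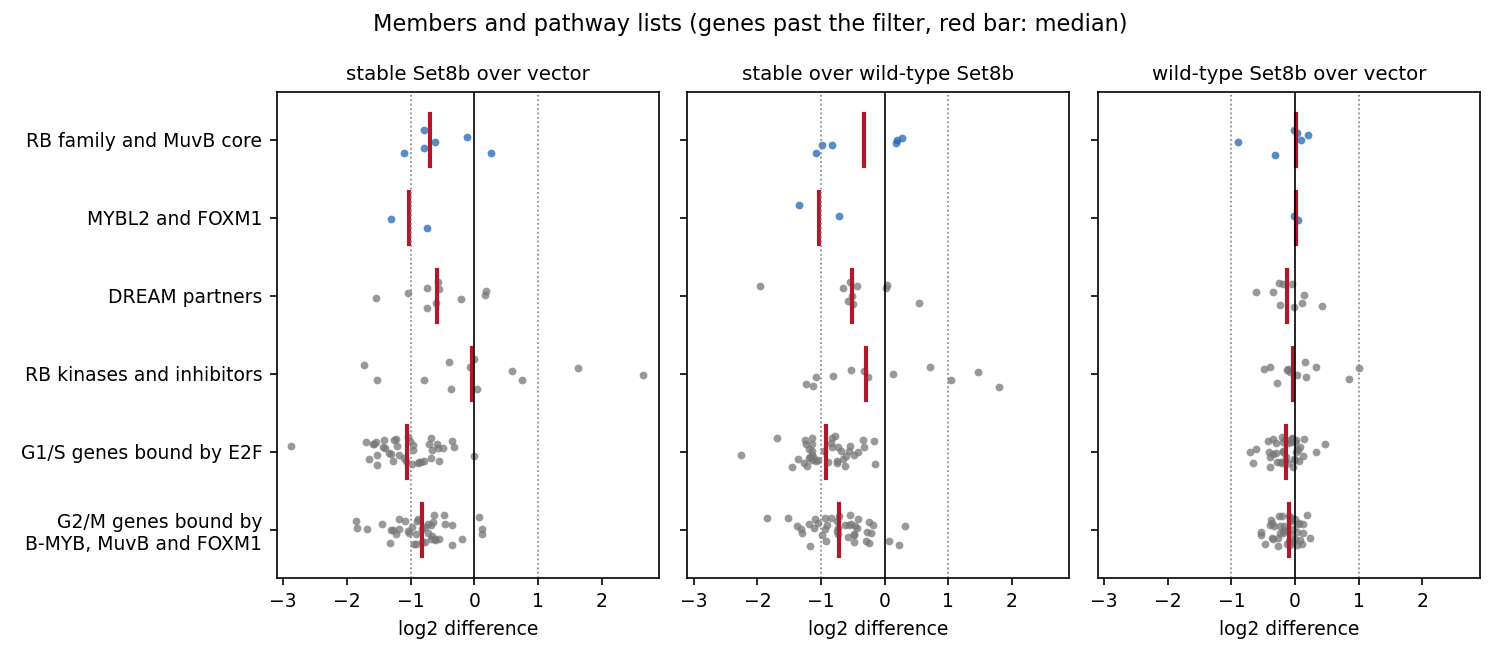
Log2 differences of the genes past the filter in 6 lists, 1 point per gene, for stable Set8b over vector, stable over wild-type Set8b and wild-type Set8b over vector, with a red bar at each median and dotted lines at 2-fold. The medians of the G1/S and G2/M lists lie left of 0 in both comparisons of stable Set8b, from -1.06 to -0.72, with 3 G2/M genes right of 0 in each, and near 0 for wild-type Set8b over vector, at -0.15 and -0.10.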

How the data were processed

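Biotin-labelled total RNA of U2OS cells was hybridised to Affymetrix arrays following the maker's protocol, per the labels' protocols. The authors deposited 54675 probe-set intensities per array on a linear scale, 62 of them controls. No label or file header names the software. The arrays' log2 medians spanned 0.146, more than the 0.1 allowed, so the 54613 other probe sets were quantile normalized, raised to a floor of 7.7 (the 20th percentile) and log2 transformed with Python 3.11.15, numpy 2.4.6 and pandas 2.3.3. Quantile normalization removes any overall shift between arrays, and background can compress the differences of dim genes. Groups are as labelled, with 1 array each, so no test was made. Of 41097 entries with 1 symbol, 41043 were found by Entrez identifier in RefSeq's gene table (GRCh38.p14). The members, lists and motifs were chosen with earlier results of these data known. The text names KMT5A, all members and the 10 genes of subunits, relatives and upstream kinases, and the 4 genes of each other list farthest from vector with stable Set8b. Genes were not ranked by likeness to the members, since 3 arrays define no pattern. The steps were tested on simulated data. The planted differences were larger than that of any member by its brightest probe set, so smaller ones were not tested. Alternatives were other scalings, floors, filters, probe set rules and fold thresholds.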

Additional observations from a re-analysis of the deposited data

How the results depend on the processing

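The mean of MYBL2 and FOXM1 for stable Set8b over vector stayed between -1.14 and -1.02 under the other scalings, floors, filters and the mean over probe sets, and between -1.04 and -0.99 for stable over wild-type Set8b. Only the scalings could move it, since each gene has a single probe set that is bright on every array. Without _x_at and _s_at probe sets FOXM1 had none left, so that mean could not be made. The RB family and MuvB median for stable Set8b over vector stayed between -0.78 and -0.37. For stable over wild-type Set8b it was 0.19 in the brightest 25% of probe sets, where 4 genes were left, and -0.82 over the 5 genes left without _x_at and _s_at probe sets. The count of members at least 2-fold lower, 2 in both comparisons of stable Set8b, was 1 with the stricter filter (the brightest 25%) and 1 when _x_at and _s_at probe sets were left out, since RBL1 or FOXM1 drops out. At 1.5-fold it was 6 over vector and 5 over wild-type Set8b, and at 3-fold it was 0 in both. For wild-type Set8b over vector the count was 1 at 1.5-fold and 1 with arrays centred on their medians, RBL2 at -1.03 in that setting. LIN52 for stable over wild-type Set8b was -0.30 as the mean over its probe sets. Other floors and filters, and leaving out _x_at and _s_at probe sets, gave the main value for every single gene left. The mean over probe sets could change only genes with several probe sets past the filter. Of 186 single-gene values under alternatives, many of them fixed in this way, 183 moved by less than the SD between probe sets. In 5 the sign changed, all for wild-type Set8b over vector and from a difference of at most 0.21 in size: LIN52 to -0.14 by the mean over probe sets, RBL1 to 0.03 with values as deposited, and FOXM1 to -0.12, LIN54 to -0.07 and LIN37 to -0.06 with centring. The mean of MYBL2 and FOXM1 for that comparison ran from -0.15 to 0.01. With 1 array per group no array could be left out. No paired analysis was possible because each group has 1 array.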

Other observations

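The nearest protein-coding genes on either side of each member, by their start in the RefSeq table of GRCh38.p14, were read as well. They were chosen by position after the members' values had been seen. Of 18 such neighbours 11 passed the filter, and their median was -0.10 for stable Set8b over vector. In that comparison 0 of the 11 were at least 2-fold lower, against 5.12% of all genes. RHNO1, a gene of the replication stress response whose annotation overlaps that of FOXM1, read 762 with stable Set8b, 1755 with wild-type Set8b and 1339 with vector. Its differences were -0.81 for stable Set8b over vector and -1.20 for stable over wild-type Set8b. RHNO1 was the single neighbour of the 11 at least 2-fold lower for stable over wild-type Set8b, against 5.23% of all genes. THAP9, next to LIN54, read 39.7 with stable Set8b, 60.1 with wild-type Set8b and 66.1 with vector (-0.73 for stable Set8b over vector). SAMHD1, a dNTP hydrolase gene next to RBL1, stood at -0.39, and IFT52, next to MYBL2, at -0.27. PSENEN, next to LIN37, stood at 0.26, close to the 0.27 of LIN37 itself. AKTIP, which overlaps RBL2, stood at -0.10 with stable and -0.19 with wild-type Set8b, each over vector, where RBL2 stood at -0.62 and -0.89.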
